A study of Mus musculus with 2 samples.

Results

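Glycosaminoglycans are the long, sulfated sugar chains that give cartilage its charge and its hold on water, and the enzymes that build and sulfate them were examined in chondrocyte cultures of *Myl3*-KO mice and their controls. The enzymes were taken from the deposited RNA sequencing table by their gene symbols, which gave 54 genes of the 22156 in the table. They cover the supply of activated sugar and sulfate, the linker that joins a chain to its core protein, the polymerases of chondroitin and heparan chains, and the sulfotransferases and epimerases that modify them.

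Each chain starts with xylose on a serine of a core protein, to which galactose, galactose and glucuronic acid are added as a linker. Addition of N-acetylgalactosamine then commits the chain to chondroitin or dermatan sulfate, and addition of N-acetylglucosamine commits it to heparan sulfate. Sulfate comes from the activated donor PAPS, and the positions that receive it are set by families of sulfotransferases in the Golgi apparatus. In cartilage most of the chains are chondroitin sulfate carried by aggrecan.

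RNA was sequenced from 1 control library and 1 *Myl3*-KO library of chondrocytes from newborn mice, cultured as a monolayer without treatment. The *Myl3*-KO mice were *Col2a1-Cre; Myl3* flox/flox, and the control littermates are described in the methods as *Myl3* flox/flox without Cre, while the sample labels call them WT. Deletion is thus limited to cells in which the *Col2a1* promoter has driven Cre, the floxed allele comes from 1 embryonic stem cell clone, and how many animals went into each culture is not given in the sources used here. The labels name rib cartilage as the source, and the methods name rib and articular cartilage.

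The libraries held 17612434.91 expected counts (estimated reads per gene) for the control and 13477976.98 for *Myl3*-KO. *Myl3* itself had 0 counts in both, so its level says nothing on whether the labels are right. Of the defining cartilage genes, *Acan*, *Hapln1*, *Matn1* and *Matn3* were at 0 counts throughout. *Col2a1* was at 30 counts (control) and 27 (*Myl3*-KO), whereas *Col1a2*, a fibroblast collagen gene, was at 211652 and 189213. *Sox9*, the transcription factor gene of cartilage, was at 866 and 480 counts, and *Sox5* at 893 and 684. *Col9a1* (0 and 1 counts), *Comp* (1 and 2) and *Sox6* (14 and 7) were also low. So were the fibroblast genes *Thy1* (0 in both), *Fap* (1 and 0) and *Dpt* (5 and 2). Most structural cartilage genes listed were thus absent or low and did not bear out the labelled cell type. The better counted genes of the list were *Sox9*, *Sox5*, *Col11a1* (121 and 99 counts) and *Col11a2* (293 and 395). Of the chondrocyte genes 6 of 12 could be tested, with summed levels of 125.9 and 125.8 CPM (counts scaled to a common library size), and 5 of 8 fibroblast genes, with 16254 and 18467 CPM. The 8 skeletal muscle genes were too low for testing, and 2 of 5 immune and 1 of 5 endothelial genes were tested. The summed levels of these 3 lists lay between 0.223 and 2.08 CPM. Among the chondrocyte genes *Col11a2*, a fibrillar collagen gene of cartilage, was called higher in *Myl3*-KO by the rule given below (293 and 395 counts, log2 ratio 0.82, interval 0.60 to 1.04), while *Sox9* lay at -0.47 (interval -0.63 to -0.30), so the nearly equal sums hold genes that differed in opposite directions. Among the fibroblast genes *Pdgfra*, a growth factor receptor gene, was called higher (120 and 140 counts, log2 ratio 0.61, interval 0.25 to 0.97). The part of these markers in the results was not tested, and in bulk RNA fewer cells of a type and less RNA per cell cannot be told apart.

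A gene was tested where it had at least 10 counts over both libraries. Counts were scaled to the library total as CPM, and ratios are log2 of *Myl3*-KO over control on that scale. An exact binomial test (two-sided) on the counts was adjusted by Benjamini-Hochberg over all 12431 genes tested. Genes with an adjusted p under 0.05 and a log2 ratio of 0.5 or more in either direction, which is 1.41-fold, were called. Where a pair of counts is given for a gene, the control comes before *Myl3*-KO. The test sets these libraries against each other, not the genotypes, no difference has a replicate check, and the 95% Clopper-Pearson intervals given below cover counting error only.

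Of the 54 enzyme genes, 40 could be tested, 4 had 1 to 9 counts and 10 had 0 counts in both libraries. *Chst1*, *B3gat2* and *Chst15* were called higher in *Myl3*-KO, and 0 members were called lower. These 3 of 40 are 7.50% of the members tested, against 5.40% of all genes tested called in either direction (4.03% higher and 1.37% lower), a share near that background. The median log2 ratio was 0.03 over the 40 members and 0.02 over all genes tested. Above 0 lay 23 members, or 57.5%, against 52.7% of all genes tested. Of the 54, 8 overlap another gene of the table, so that reads of the overlap may have gone to either gene. Those of *Chpf2*, *Chst15* and *B3gat2* are given beside their values. *Ndst1* overlaps *Rps14* (11065 and 8362 counts, log2 ratio -0.02), *Ext2* overlaps *Alx4* and *Ugdh* overlaps *Gm43552*, both at 0 counts in each library, *Hs3st3a1* overlaps *F930015N05Rik*, and *B3gat1* overlaps *Glb1l2* (4 and 7 counts). The enzymes took 0.164% of all counts of the control library and 0.166% of the *Myl3*-KO library.

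**Figure D1:**
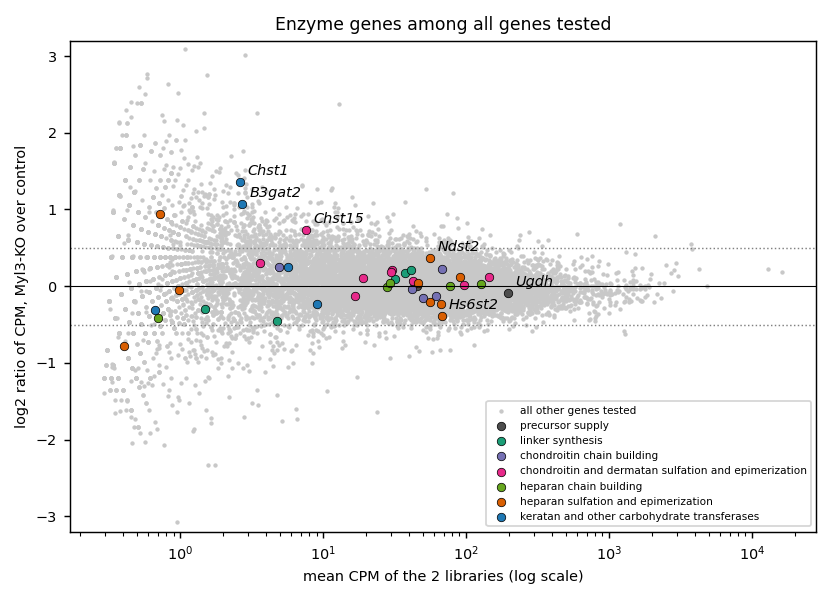
Log2 ratio of CPM (*Myl3*-KO over control) against the mean CPM of the libraries on a log scale, with a point for each gene tested, the 40 enzyme genes coloured by step and dotted lines at the limits of 0.5. The enzyme genes lie within the cloud of all genes, with the called genes *Chst1*, *B3gat2* and *Chst15* and the uncalled *Hs3st3a1* above the upper limit at low CPM, and 2 genes fall outside the axis.

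The well counted enzymes differed little between the libraries. Of the 26 members with at least 500 counts over both, 19 had a log2 ratio within 0.2 of 0, and the range was -0.39 for *Hs6st2* to 0.36 for *Ndst2*. The 14 tested members with fewer counts spread from -0.78 to 1.36. All 3 called genes were among the latter.

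The sequences upstream of these genes are shown for *Chst1* and *Chst15*, which were called, and for *Ndst2*, which had the highest ratio of the well counted members. Each is the 250 bases before a RefSeq start on GRCm38.p6, 5′ to 3′ on the strand of the gene, with CpG dinucleotides in capitals. *Chst1* lies on the plus strand of chr2:92600867-92601116, inside the span of the gene in GENCODE, which starts at 92599707. The bases after this RefSeq start were not found in a GENCODE transcript of *Chst1*, whereas those after the other windows shown were found in theirs. *Chst15* lies on the minus strand of chr7:132317229-132317478 and *Ndst2* on the minus strand of chr14:20734563-20734812.
Chst1: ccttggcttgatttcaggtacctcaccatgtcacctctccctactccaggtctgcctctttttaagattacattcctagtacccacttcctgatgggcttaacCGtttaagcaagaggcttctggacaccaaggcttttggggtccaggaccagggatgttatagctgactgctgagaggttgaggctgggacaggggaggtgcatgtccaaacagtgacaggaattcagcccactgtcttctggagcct
Chst15: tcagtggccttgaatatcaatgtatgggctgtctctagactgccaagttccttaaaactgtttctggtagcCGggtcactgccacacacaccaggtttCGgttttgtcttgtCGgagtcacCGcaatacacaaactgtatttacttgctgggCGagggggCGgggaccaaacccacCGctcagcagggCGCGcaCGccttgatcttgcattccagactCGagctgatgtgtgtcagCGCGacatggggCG
Ndst2: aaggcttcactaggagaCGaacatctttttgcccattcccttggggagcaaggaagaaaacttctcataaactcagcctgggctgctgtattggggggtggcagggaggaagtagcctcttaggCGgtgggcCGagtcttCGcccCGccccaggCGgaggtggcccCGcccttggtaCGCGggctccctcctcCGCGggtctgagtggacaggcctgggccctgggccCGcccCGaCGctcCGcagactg

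The window of *Chst1* holds 1 CpG, that of *Chst15* 14 and that of *Ndst2* 15, beside a median of 17 CpG over the 52 starts of the 44 members found in the RefSeq promoter table and of 6 over all 32851 starts. RefSeq lists another start for *Chst15*, whose window on the minus strand of chr7:132317027-132317276 is not shown and holds 20 CpG. The core letters of the binding motif of RBPJ, the DNA-binding partner of Notch, GTGGGAA on either strand, were found upstream of 0 of the 44 members, and in 5.42% of all starts. The core letters ACGTG, shared by low-oxygen response elements, were found at 21.2% of the members' starts and 16.6% of all starts, and in none of the 3 windows shown. Letters found or not found in a window of this length are a description and say nothing of a factor's binding.

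Precursors and the linker come first. *Ugdh*, which makes UDP-glucuronic acid, was the most abundant member per length, at 79.38 FPKM (reads scaled to gene length and library size) for the control and 74.75 for *Myl3*-KO. Its counts were 3565 and 2569, which puts the log2 ratio at -0.09 and its 95% interval at -0.16 to -0.01 (adjusted p = 0.0563 in the exact binomial test). *Papss1*, a PAPS synthase, had 802 and 612 counts, a log2 ratio of 0.00 with an interval of -0.16 to 0.15. *Papss2*, the PAPS synthase in which mutations cause skeletal dysplasia, had 2 counts and 1 count, both under the floor of 3 counts, so a difference was not detectable at this depth. Nearly all PAPS synthase reads in both libraries therefore came from *Papss1* (99.8% in each).

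Of the 5 linker enzymes, 0 were called, and their median log2 ratio was 0.09. *B3gat3*, which adds the glucuronic acid that completes the linker, had 677 and 602 counts (log2 ratio 0.22, interval 0.06 to 0.38), the only linker gene whose adjusted p was under 0.05. The galactosyltransferase gene *B4galt7* had 543 and 442 counts (log2 ratio 0.09), and *B3galt6*, which adds the next galactose, had 29 and 18 counts with an interval of -1.24 to 0.60. The xylosyltransferases that start the chain had ratios on either side of 0. *Xylt2* had 616 and 532 counts (log2 ratio 0.17, interval 0.0044 to 0.34), and *Xylt1* had 97 and 54 (log2 ratio -0.46, interval -0.97 to 0.04). The share of xylosyltransferase reads from *Xylt1* was 13.6% in the control (95% interval 11.2% to 16.3%) and 9.22% among the *Myl3*-KO reads (6.998% to 11.9%).

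**Figure D2:**
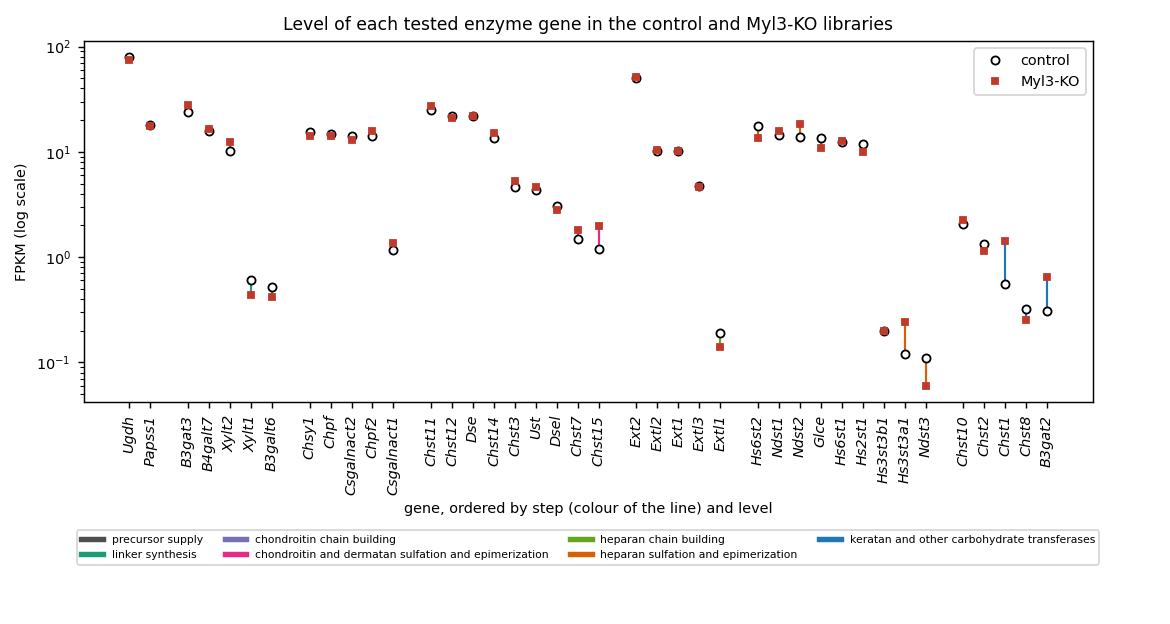
FPKM of the 40 tested enzyme genes on a log scale in the control (open circles) and *Myl3*-KO (red squares) libraries, 1 library each, ordered by step and by level in the control. *Ugdh* and *Ext2* are highest in both libraries, and the symbols lie furthest apart at genes near or under 1 FPKM, among them *Chst1* (0.55 and 1.41) and *B3gat2* (0.31 and 0.65).

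Among the chondroitin polymerases, 5 of the 6 genes were tested and 0 were called. *Chsy3*, a chondroitin synthase, had 0 counts in both libraries, so the synthase reads came from *Chsy1*, with 1146 and 799 counts (log2 ratio -0.13, interval -0.27 to -0.0028). *Chpf2*, a polymerizing factor, had 1102.01 and 981.73 counts (log2 ratio 0.22, interval 0.09 to 0.35, adjusted p = 0.0027 in the exact binomial test), and its partner *Chpf* had 752 and 563 (log2 ratio -0.03). *Chpf2* overlaps *Smarcd3* (391.99 and 363.27 counts, log2 ratio 0.28), and reads of the overlap may have gone to either gene. The counts of both genes are not whole numbers in either library. By FPKM the log2 ratio of *Chpf2* was 0.15. The genes that add the first N-acetylgalactosamine were *Csgalnact2*, with 922 and 633 counts (log2 ratio -0.16, interval -0.30 to -0.01), and the weaker counted *Csgalnact1*, with 79 and 72. Summed over these genes the reads did not differ beyond counting error (log2 ratio -0.01, interval -0.07 to 0.06). The same held for the heparan polymerases (0.02, interval -0.05 to 0.08) and the heparan modifying enzymes (-0.05, interval -0.10 to 0.0003). For the other groups the interval of the sum excluded 0. The log2 ratio was -0.07 for precursor supply, 0.13 for the linker, 0.10 for chondroitin and dermatan modification and 0.25 for keratan and other transferases.

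Of the 10 enzymes that sulfate or epimerize chondroitin and dermatan, 9 were tested, 1 was called higher and 8 had a log2 ratio above 0. Over all genes tested, 4.03% were called higher and 52.7% lay above 0. The median was 0.11. *Chst15*, which adds a further sulfate to already sulfated N-acetylgalactosamine, rose 1.66-fold, from 101 to 128 counts or from 5.73 to 9.50 CPM. On the log2 scale this is 0.73, with a 95% interval of 0.34 to 1.12 (adjusted p = 0.000971 in the exact binomial test). *Chst15* overlaps *Fgfr2*, whose log2 ratio was -0.29.

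The chondroitin 4-O- and 6-O-sulfotransferase genes *Chst11*, *Chst12*, *Chst3* and *Chst7* included the best counted gene of this list, and 0 of these were called. *Chst11*, the main chondroitin 4-O-sulfotransferase of cartilage, had 2449 and 2029 counts and a log2 ratio of 0.11, with an interval of 0.03 to 0.20 (adjusted p = 0.0266 in the exact binomial test). *Chst12*, with the same activity, had 736 and 590 (log2 ratio 0.07), and *Chst13* had 0 in both. The share of *Chst11* in the reads of *Chst11* and *Chst12* was 76.9% and 77.5%. *Chst3*, a chondroitin 6-O-sulfotransferase, had 495 and 438 counts (log2 ratio 0.21, interval 0.02 to 0.40, adjusted p = 0.076 in the exact binomial test), and *Chst7*, with the same activity, had 57 and 54. For dermatan, the epimerase genes *Dse* (1687 and 1307 counts, log2 ratio 0.02) and *Dsel* (309 and 217 counts, log2 ratio -0.12), the dermatan 4-O-sulfotransferase gene *Chst14* (log2 ratio 0.18) and the uronyl 2-O-sulfotransferase gene *Ust* (0.10) all had intervals that include 0.

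**Figure D3:**
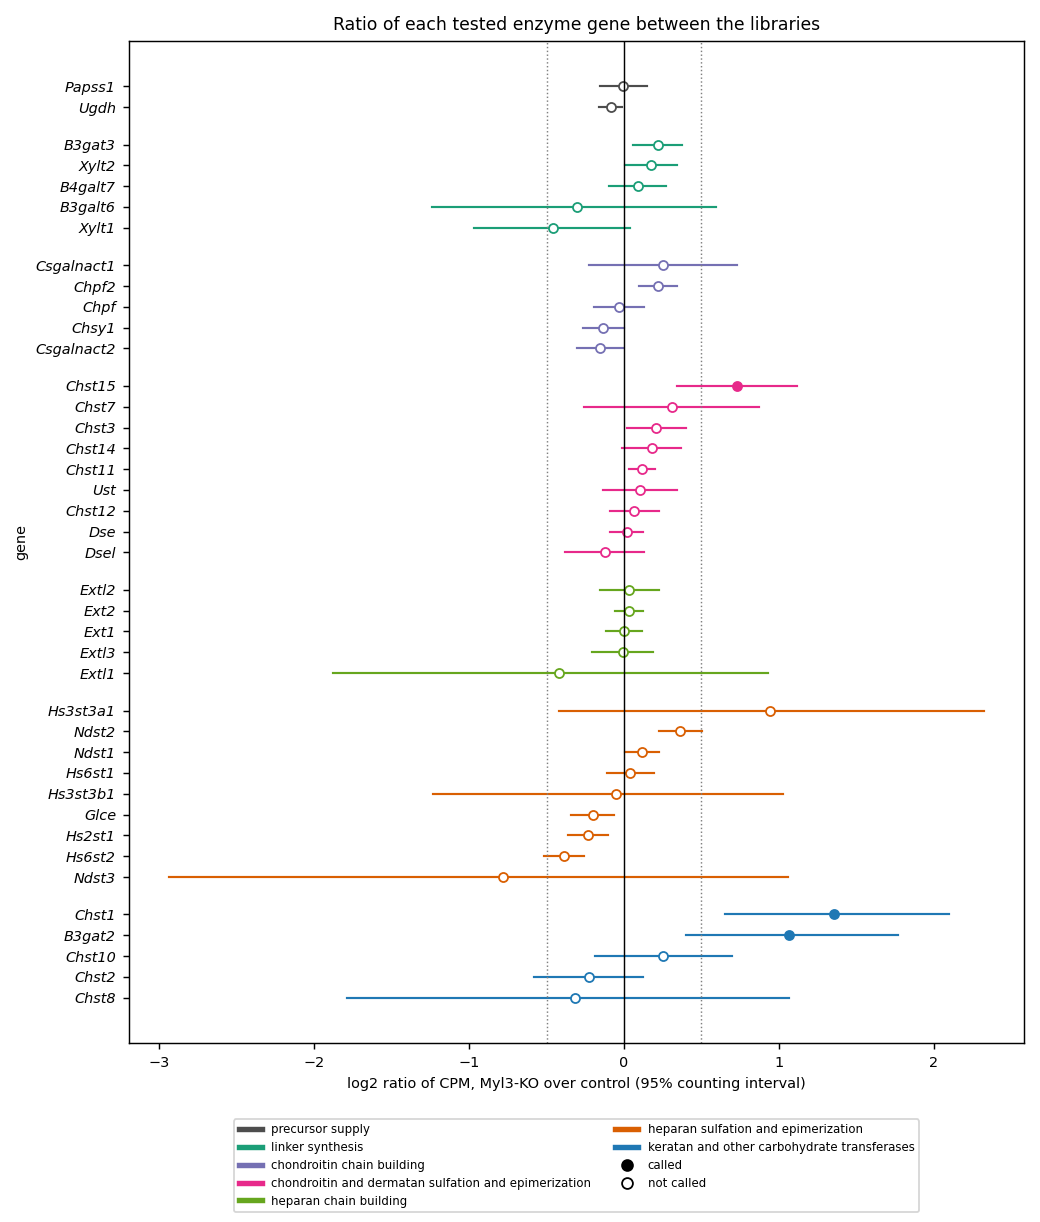
Log2 ratio of CPM (*Myl3*-KO over control) of each tested enzyme gene with its 95% counting interval, grouped by step, with filled points for genes called and dotted lines at the limits of 0.5. The filled points are *Chst15*, *Chst1* and *B3gat2*, and the heparan polymerases *Ext1*, *Ext2*, *Extl2* and *Extl3* lie between -0.01 and 0.04.

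Of the 5 heparan polymerase genes, all tested, 0 were called. *Ext1* and *Ext2*, which encode the co-polymerase that extends the chain, had log2 ratios of 0.00 (interval -0.12 to 0.12) and 0.03 (interval -0.06 to 0.12), on 1365 and 1045 counts for *Ext1* and 2233 and 1748 for *Ext2*. Per length the partners were not at one level, with 10.11 FPKM for *Ext1* and 50.27 for *Ext2* for the control and 10.12 and 50.92 for *Myl3*-KO. *Extl2* and *Extl3*, which act at the start of the chain, had log2 ratios of 0.04 and -0.01, and *Extl1* had only 14 and 8 counts. 0 of these 5 genes had an interval that excluded 0.

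The enzymes that modify heparan showed the largest differences among well counted members, in both directions. Of the 16, 9 were tested and 0 were called, with a median log2 ratio of -0.05. *Ndst2*, an N-deacetylase and N-sulfotransferase that makes the first modification, had 866 and 852 counts, or 49.2 and 63.2 CPM. Scaled to depth it was higher in *Myl3*-KO by 0.36 on the log2 scale, with a 95% interval of 0.22 to 0.50 (adjusted p = 2.16e-06 in the exact binomial test), and stayed under the limit of 0.5. *Ndst1*, with the same activity, had 1541 and 1279 counts (log2 ratio 0.12, interval 0.01 to 0.23). The share of *Ndst1* in the reads of this pair was 64.0% (control) and 60.0% (*Myl3*-KO). By FPKM *Ndst2* moved from place 15 to place 7 among the members.

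*Hs6st2*, a heparan 6-O-sulfotransferase gene, had 1351 and 791 counts, or 76.7 and 58.7 CPM. It was lower in *Myl3*-KO at -0.39 on the log2 scale, with bounds of -0.51 and -0.26 (adjusted p = 2.45e-08 in the exact binomial test, the lowest p of any member tested). By FPKM it moved from place 8 to place 15. *Hs6st1* had 805 and 634 counts and a log2 ratio of 0.04 (interval -0.11 to 0.19), and *Hs6st3* had 0 in both. The share of *Hs6st1* in the reads of *Hs6st1* and *Hs6st2* was 37.3% in the control (95% interval 35.3% to 39.4%) and 44.5% in *Myl3*-KO (41.9% to 47.1%). The 2-O-sulfotransferase gene *Hs2st1* had 1281 and 834 counts and was at -0.23 on the log2 scale, with an interval of -0.36 to -0.11 (adjusted p = 0.00141 in the exact binomial test). The epimerase gene *Glce*, whose product makes the iduronic acid that *Hs2st1* sulfates, had 1061 and 706 counts and was at -0.20, with an interval of -0.34 to -0.06 (adjusted p = 0.0145 in the exact binomial test).

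The enzymes of the late 3-O-sulfation were close to absent. *Hs3st1*, *Hs3st2*, *Hs3st4* and *Hs3st6* had 0 counts in both libraries and *Hs3st5* had 3 and 0, where 3 counts correspond to 0.170 CPM for the control and 0.223 for *Myl3*-KO. *Hs3st3a1* had 8.66 and 12.76 counts and *Hs3st3b1* 17.62 and 13, estimated counts that are not whole numbers. *Ndst3* had 9 and 4 counts and *Ndst4* 1 and 0.

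The share of reads within a pair of related enzymes does not depend on how the libraries were scaled. Of 12 pairs, 10 had enough counts in both genes for an odds ratio, and in 4 its unadjusted 95% interval excluded 0 on the log2 scale. These were *Hs6st1* over *Hs6st2* (log2 odds ratio 0.43, interval 0.23 to 0.63), *Ndst1* over *Ndst2* (-0.25, interval -0.42 to -0.07), *Chpf* over *Chpf2* (-0.25, interval -0.46 to -0.05) and *Xylt1* over *Xylt2* (-0.63, interval -1.17 to -0.11). In the other 6 the interval included 0, with the narrowest for *Ext1* over *Ext2* (-0.18 to 0.12).

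**Figure D4:**
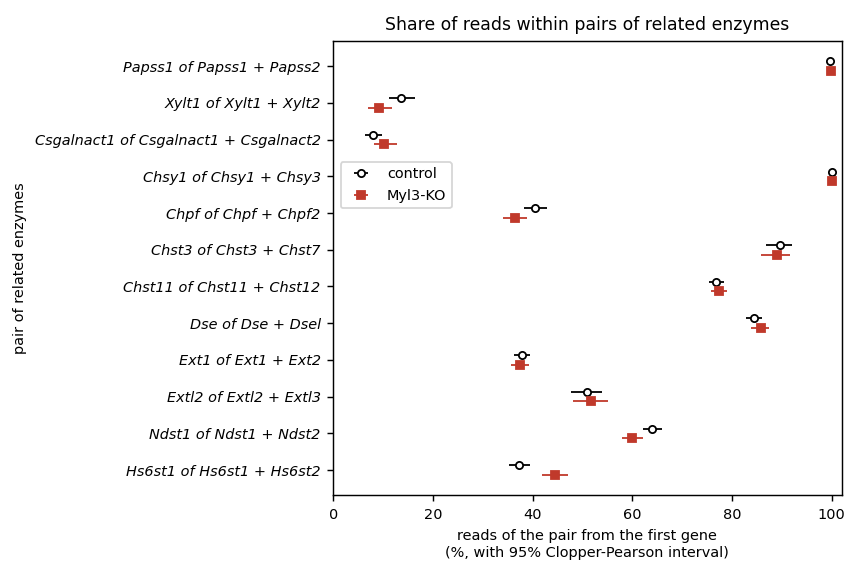
Share of the reads of 12 pairs of related enzymes that came from the first gene, in percent with 95% Clopper-Pearson intervals, in the control (open circles) and *Myl3*-KO (red squares) libraries. *Hs6st1* takes 37.3% of its pair for the control and 44.5% for *Myl3*-KO, and *Papss1* and *Chsy1* take nearly all of theirs in both.

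Of the 9 sulfotransferases and glucuronyltransferases outside the chondroitin and heparan lines, 5 were tested and 2 were called higher, against 4.03% of all genes tested. *Chst1*, which sulfates galactose in keratan sulfate, rose 2.56-fold, from 26 to 51 counts or from 1.48 to 3.78 CPM. On the log2 scale this is 1.36, with a 95% interval of 0.65 to 2.10 (adjusted p = 0.000439 in the exact binomial test). *B3gat2*, a glucuronyltransferase of the HNK-1 epitope found on glycoproteins of the nervous system, rose from 31 to 49.64 counts, or from 1.76 to 3.68 CPM. This is 1.07 on the log2 scale, with a 95% interval of 0.40 to 1.77 (adjusted p = 0.00459 in the exact binomial test). *B3gat2* overlaps the far better counted *Smap1* (1178 and 900.36 counts, log2 ratio 0.00), and reads of the overlap may have gone to either gene. In *Myl3*-KO, but not in the control, the counts of both genes are not whole numbers. How much of the ratio of *B3gat2* rests on shared reads was not tested. Per length both genes were weakly expressed, at 0.55 and 1.41 FPKM for *Chst1* and 0.31 and 0.65 for *B3gat2*.

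The other tested genes of this group did not differ beyond counting error. *Chst2*, which sulfates N-acetylglucosamine, had 173 and 113 counts (log2 ratio -0.23), *Chst10*, the HNK-1 sulfotransferase gene, had 92 and 84 (0.25), and *Chst8* had 13 and 8 (-0.31). *B3gat1*, *Chst5* and *Chst9* had 0 counts in both libraries and *Chst4* 1 in each. The keratan polymerase gene *B3gnt7* also had 0 in both, while *B4galt1* had a log2 ratio of 0.34 (interval 0.23 to 0.45) on 1369 and 1326 counts. Also listed for keratan chain building were *B4galt4* (log2 ratio 0.13, interval -0.24 to 0.50) and *B3gnt2* (-0.15, interval -0.38 to 0.09).

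The calls rest on the assumption that libraries of one genotype differ by counting error alone. With a coefficient of variation of 0.1 between libraries in edgeR's exact test, 0 members were called, and the adjusted p was 0.12 for *Chst1*, 0.387 for *B3gat2* and 0.44 for *Chst15*. The adjusted p of the well counted *Hs6st2*, *Ndst2*, *Hs2st1* and *Glce* was also above 0.05 there. That setting called only 0.330% of all genes tested higher and 0.161% lower. With no limit on the ratio, 7 members were higher and 3 lower at an adjusted p under 0.05, or 25.0% of the 40 against 35.4% of all genes tested (18.6% higher and 16.8% lower). With a limit of 1, *Chst1* and *B3gat2* were called, or 5.00% of the members against 1.54% of all genes (1.15% higher and 0.394% lower), and with a limit of 2 and an unadjusted p under 0.05, 0 members were called against 0.298% (0.249% higher and 0.0483% lower).

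Other genes of the same pathway were set beside the enzymes. Of 13 further genes listed for the linker and for the handling of nucleotide sugars and sulfate, 0 were called and the median log2 ratio was 0.00. Above 0 lay 6 and below 0 lay 7, and 5 had an interval that excluded 0. Among these were *Uxs1* (2786 and 1826 counts, log2 ratio -0.22, interval -0.31 to -0.14) and *Cant1* (1186 and 1060, 0.22, interval 0.10 to 0.34). The sulfate transporter gene *Slc26a2* had 478 and 366 counts (log2 ratio 0.00, interval -0.20 to 0.20), and *Impad1*, the Golgi phosphatase that clears the by-product of sulfation, had 4803 and 3045 (log2 ratio -0.27, interval -0.34 to -0.21). *Sulf2*, an extracellular sulfatase that trims heparan 6-O-sulfates, had 6196 and 4654 counts and a log2 ratio of -0.03 (interval -0.08 to 0.03), while *Sulf1* had 1 and 0. Of the 14 tested genes of chain degradation, *Idua*, the iduronidase gene, was called higher (225 and 256 counts, log2 ratio 0.57, interval 0.31 to 0.84), and it overlaps *Dgkq* and *Slc26a1*. The share called higher over all genes tested was 4.03%.

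Core protein genes that carry the chains had log2 ratios from -1.86 to 1.21. Of 28 listed, 20 were tested, 2 were called higher and 3 lower, with a median log2 ratio of 0.13. Of all genes tested, 4.03% were called higher and 1.37% lower. The small proteoglycan genes *Dcn* (631 and 155 counts, log2 ratio -1.64), *Lum* (272 and 81, -1.36) and *Fmod* (19 and 4, -1.86) fell. *Omd* (867 and 1534, log2 ratio 1.21), which overlaps *Cenpp*, and *Gpc2* (596 and 750, 0.72), a glypican gene, rose. *Bgn*, the most abundant of the chondroitin and dermatan carriers listed, had 46450 and 43830 counts (log2 ratio 0.30), and *Acan* had 0 in both.

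**Figure D5:**
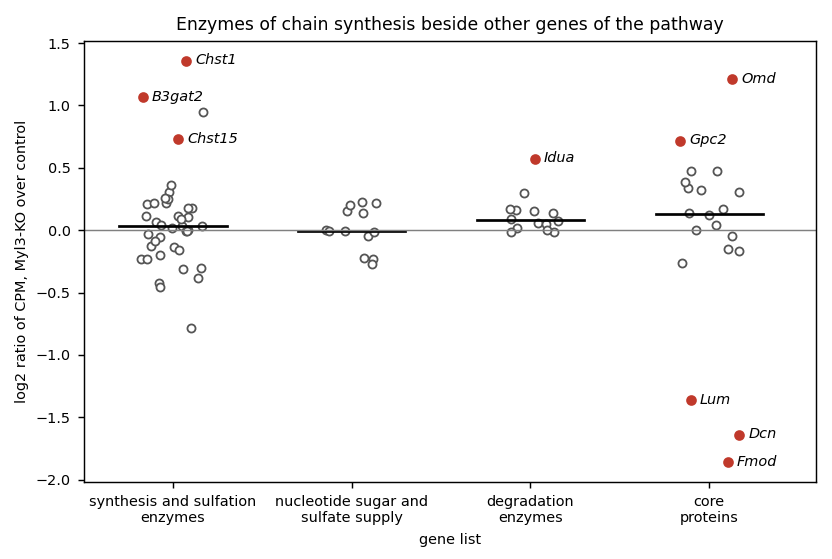
Log2 ratio of CPM (*Myl3*-KO over control) of the tested genes of 4 lists, with a point per gene spread sideways for visibility, red points for genes called and a bar at the median. The medians are 0.03, 0.00, 0.08 and 0.13 from left to right, and the core proteins reach from -1.86 to 1.21.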

How the data were processed

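RNA sequencing of 1 control and 1 *Myl3*-KO library was analysed. The deposited table gives an expected count per gene, not normalized, and an FPKM value scaled by the authors to gene length and library size. The submitters' processing notes name GRCm38 (mm10). The aligner, counting tool and strand setting are not given in the sources used here, so genes overlapping the members and the called pathway genes are named. The column headed NC was read as control because the other is headed KO. The methods describe mRNA enriched on oligo beads, and the labels name a SMARTER kit.

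Counts under 3 were raised to 3 for ratios, and counts were rounded for the exact binomial test and the intervals. The members, lists, pairs and call rule were chosen with earlier results of these data known. All 54 members are accounted for, values were given by role, and called genes of the pathway and marker lists were named. A quasi-likelihood test in edgeR needs replicates and was not run. The test was tested on simulated data of these libraries in 6 runs for each size of change, with 200 genes changed. Of these, 166 to 183 had an adjusted p under 0.05 at a log2 change of 0.5 and 198 to 200 at 1. The counts were drawn with counting error alone, and the changed genes had at least 200 counts over both libraries. The runs therefore say nothing on variation between libraries or on recovery of genes with fewer counts, such as *Chst1* and *B3gat2*. Scaling to library totals shifted all ratios by up to 0.0399 on the log2 scale at a change of 2, where up to 118 unchanged genes had an adjusted p under 0.05 and 1 to 5 passed the limit of 0.5 as well. Positions and overlaps came from GENCODE M21 (GRCm38), which held 54 of the 54 identifiers, and promoter sequences from RefSeq (GRCm38.p6). Those shown and the motifs were chosen after the values were seen. At these depths 3 counts are 0.170 CPM in the control and 0.223 in *Myl3*-KO. Alternatives were TMM or DESeq2 scaling, centring on the median, other filters and limits, 1 added count, the FPKM ratio and a preset coefficient of variation. Python 3.11.15, scipy 1.17.1, R 4.3.3, edgeR 4.0.16 and DESeq2 1.42.0 were used.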

Additional observations from a re-analysis of the deposited data

How the results depend on the processing

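*Chst1*, *B3gat2* and *Chst15* were the members called under TMM factors, DESeq2 size factors, centring on the median of all genes, no filter, at least 10 counts in each library, 1 added count and the FPKM ratio, with 0 called lower in each. With a coefficient of variation of 0.1, 0.2 or 0.4 in edgeR's exact test, 0 were called higher. Of all genes tested, 0.330%, 0.0241% and 0.00804% were called higher at these values. A limit of 2 with an unadjusted p also gave 0, a limit of 1 gave 2, and no limit gave 7 higher and 3 lower. The median log2 ratio of the members ranged from 0.01 with DESeq2 size factors to 0.04 with at least 10 counts in each library. The sign turned for 3 members near 0, none of them called. *Ext1* went to -0.0174 with TMM factors, -0.0233 with DESeq2 size factors and -0.0162 with centring. *Dse* went to -0.000195 with TMM factors and -0.0061 with DESeq2 size factors. Each of these scalings moves all log2 ratios by one and the same amount. *Chst12* went to -0.0537 with the FPKM ratio, and the cause was not tested. The odds ratios of the 10 pairs stayed within their counting intervals when FPKM replaced counts. No paired analysis was possible because there is 1 library per genotype, and for the same reason no replicate could be left out. Depth limits the statements on members with few counts, of which 8 of the 40 tested had under 100 over both libraries.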

Other observations

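For most members the ratio of the deposited FPKM values and that of the counts lay close together. For *Xylt2* the log2 ratio was 0.28 by FPKM and 0.17 by counts, for *Glce* it was -0.31 and -0.20, and for *Chst12* it was -0.05 and 0.07. The ratios also differed for *Chst10* (0.15 by FPKM and 0.25 by counts), *Chpf2* (0.15 and 0.22), *Ndst2* (0.42 and 0.36) and the weakly counted *Ndst3* (-0.87 and -0.78).

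Among the pathway annotations that come with the table, the chondroitin and dermatan sulfate pathway held 20 genes and the heparan sulfate pathway 24, all of them members here. The keratan sulfate pathway held 14, of which 4 are members, and 5 members carried no pathway.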
